A study of Mus musculus with 12 samples.

Results

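Mpeg1, Il18bp and Xdh were followed through all 12 RNA-seq libraries of a mouse prostate cancer line treated with interferon γ (IFNγ), with the DNA-crosslinking platinum drug oxaliplatin (Oxali), or with both. They are 3 of the 55216 genes in the count table and of the 13177 that were abundant enough to test. They were chosen by measured values, as the genes with the largest positive interaction at the high IFNγ dose. In other words, their change from Oxali to Oxali plus IFNγ exceeded their change from control to IFNγ alone by the most on the log2 scale. The choice set aside genes averaging under 1 on the log2 scale of CPM (counts per library scaled to the same total) and kept genes called in that interaction. That interaction is therefore a description of how they were picked and not a result.

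All libraries came from Myc-CaP, an established line of Myc-driven prostate cancer cells from FVB/NJ mice, harvested 48 h after the start of treatment. The 6 groups of 2 libraries were Ctrl (untreated), IFN200 and IFN2000 (IFNγ at 200 or 2000 pg), Oxali (2 μM), and Combo200 and Combo2000 (Oxali at 2 μM with either IFNγ dose). The labels give the IFNγ dose without a volume, and the study gives it per mL. Groups follow the sample titles. For 6 of the 12 libraries, those of the single treatments, a second label naming the agent points to another single treatment, as libraries titled IFN200 carry Oxali, those titled IFN2000 carry the low IFNγ dose and those titled Oxali carry the high one. The labels do not say that the 2 libraries of a group came from separate cultures, so each p-value measures the spread between libraries only, which may be technical.

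Mpeg1 encodes perforin-2, a pore-forming protein of the same family as perforin and the terminal complement proteins. It is best known from macrophages, where it attacks bacteria inside phagocytic compartments. Il18bp encodes a secreted protein that binds interleukin 18 and keeps it from its receptor, and it is a classical IFNγ-induced brake, since interleukin 18 itself drives IFNγ release. Xdh encodes xanthine dehydrogenase, a molybdenum enzyme that turns hypoxanthine and xanthine into urate in the last steps of purine breakdown and can release reactive oxygen species in its oxidase form. IFNγ acts through its receptor and the JAK kinases, and factors of the IRF family are among the genes it switches on.

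Mpeg1 (ENSMUSG00000046805.10) lies on the plus strand of chromosome 19 at 12460779 to 12465283 (build GRCm38, GENCODE annotation), with 4334 exonic bases and 1 annotated transcript. Il18bp (ENSMUSG00000070427.4) lies on the minus strand of chromosome 7 at 102014885 to 102018690, with 3026 exonic bases and 4 transcripts. Xdh (ENSMUSG00000024066.9) lies on the minus strand of chromosome 17 at 73883895 to 73950196, with 9175 exonic bases and 14 transcripts. RefSeq promoter sequences (GRCm38.p6) were at hand for 2 of the 3 genes and are shown because these genes moved together. Each runs 5′ to 3′ over 250 bases before the RefSeq start site in lower case, and the first 10 transcribed bases are in capitals. The Mpeg1 stretch is chr19:12460520-12460779 on the plus strand and the Il18bp stretch is chr7:102018223-102018482 on the minus strand. The Il18bp start site used by RefSeq lies inside the GENCODE gene, downstream of its outermost transcript start.

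Mpeg1: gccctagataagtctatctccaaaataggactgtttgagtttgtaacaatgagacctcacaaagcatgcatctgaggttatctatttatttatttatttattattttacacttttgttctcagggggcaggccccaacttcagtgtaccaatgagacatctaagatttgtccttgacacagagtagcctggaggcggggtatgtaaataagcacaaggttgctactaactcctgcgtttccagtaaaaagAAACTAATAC

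Il18bp: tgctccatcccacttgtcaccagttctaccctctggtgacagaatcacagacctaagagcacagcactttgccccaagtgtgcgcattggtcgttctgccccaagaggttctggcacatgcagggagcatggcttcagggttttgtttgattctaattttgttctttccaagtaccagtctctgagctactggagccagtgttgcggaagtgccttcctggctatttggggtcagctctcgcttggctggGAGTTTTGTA

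A gamma-activated site (TTCNNNGAA), the core of an interferon-stimulated response element (GAAA, any 2 bases, GAAA), a core element of the myeloid factor PU.1 (GAGGAAG) and the NF-κB consensus were looked for on both strands of the 300 bases from 250 before to 50 after each start. None of the 4 patterns was found in either stretch, which says only that these letters are not in these windows. The gamma-activated site occurred in 8.3%, the response element core in 3.44%, the PU.1 core in 13.6% and the NF-κB consensus in 4.51% of the 32851 promoters of that length.

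Library totals ran from 18749975 to 25931516 counts. A gene without a count could still be present at up to 3 counts, or 0.111 to 0.167 CPM by library, as far as counting error goes. Partner libraries differed by more than sampling noise in every group, with a chi-square per degree of freedom of 1.71 to 9.15. A list of 15 p53 targets, which platinum damage is known to raise, summed to 787 to 803 CPM in the 6 libraries titled with Oxali and to 602 to 624 CPM in the other 6, so these values follow the titles. Mouse Myc and the prostate markers Hoxb13 and Krt8 were abundant in every library. By contrast, Epcam had no count and Cdh1 and Krt18 at most 6 counts in any library. A pair of libraries stood apart. IFN2000 replicate 2 held 5.87 CPM over 8 T cell markers, with 64 counts of the leukocyte gene Ptprc, where the other 11 libraries held 0.353 to 1.92 CPM. IFN200 replicate 1 held 8.33 CPM over 8 heart muscle markers, led by Actc1 with 63 counts, where the other libraries without Oxali held 0.835 to 1.27 CPM. Values without these libraries are given beside the results on the 3 genes that use them.

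Mpeg1 was low in untreated cells and highest in the high-dose combination. The 2 Ctrl libraries held 56 and 59 counts, or 3.12 and 2.99 CPM, and the Oxali libraries held 54 and 52 counts, or 2.49 and 2.48 CPM. With IFNγ alone Mpeg1 stood at 4.56 and 5.57 CPM in IFN200 and at 10.1 and 10.3 CPM in IFN2000. With Oxali added it stood at 14.3 and 19.2 CPM in Combo200 and at 51.9 and 54.4 CPM in Combo2000, the latter from 1401 and 1263 counts. Ordered from low to high, the groups ran Oxali, Ctrl, IFN200, IFN2000, Combo200 and Combo2000, and no 2 neighbours in that order overlapped. The widest gap between partners was in Combo200, with a mean of 16.7 ± 3.50 CPM (SD, n = 2), against 53.2 ± 1.80 CPM in Combo2000 and 3.05 ± 0.0888 CPM in Ctrl. In CPM, the gap between the Combo200 partners exceeded that between the higher IFN2000 and the lower Combo200 library. In these bulk libraries, more cells carrying a transcript and more transcript per cell cannot be told apart.

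Il18bp followed the same order of groups at a lower level. It was lowest in Oxali, with 27 and 14 counts, or 1.24 and 0.668 CPM, and stood at 1.39 and 2.03 CPM in Ctrl from 25 and 40 counts. The exact 95% Poisson interval of the 14 counts ran from 7.65 to 23.5 and that of the 27 counts from 17.8 to 39.3, so the lowest groups rest on few reads. IFNγ alone gave 2.17 and 2.47 CPM in IFN200 and 3.43 and 3.48 CPM in IFN2000. The combinations gave 3.71 and 4.33 CPM in Combo200 and 11.1 and 11.5 CPM in Combo2000, where the counts were 299 and 267. The groups did not overlap, but the gap between the higher Ctrl and the lower IFN200 library was smaller than the gap between the Ctrl partners, so the low end of this order lay within the spread of its libraries. Likewise, the gap between the higher IFN2000 and the lower Combo200 library was smaller than the gap between the Combo200 partners. Group means were 0.956 ± 0.407 CPM in Oxali, 1.71 ± 0.450 in Ctrl, 2.32 ± 0.215 in IFN200, 3.45 ± 0.0393 in IFN2000, 4.02 ± 0.439 in Combo200 and 11.3 ± 0.306 in Combo2000 (SD, n = 2).

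Xdh had another order. Its lowest values were those of IFN2000, at 3.30 and 3.35 CPM, below the 4.17 and 4.26 CPM of Ctrl. IFN200, at 4.25 and 4.86 CPM, and Oxali, at 5.85 and 4.10 CPM, both overlapped Ctrl, so these 3 groups were not separated by their libraries. Both combinations stood above all single treatments, with 11.5 and 10.6 CPM in Combo200 and 18.0 and 20.4 CPM in Combo2000, from 485 and 473 counts in the latter. The means were 4.21 ± 0.0596 CPM for Ctrl, 4.98 ± 1.24 for Oxali, 11.1 ± 0.654 for Combo200 and 19.2 ± 1.71 for Combo2000 (SD, n = 2). For all 3 members both Combo2000 libraries exceeded the other 10, as they did for 6.25% of the genes tested, and since these groups entered the choice of the genes nothing is read from it.

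**Figure D1:**
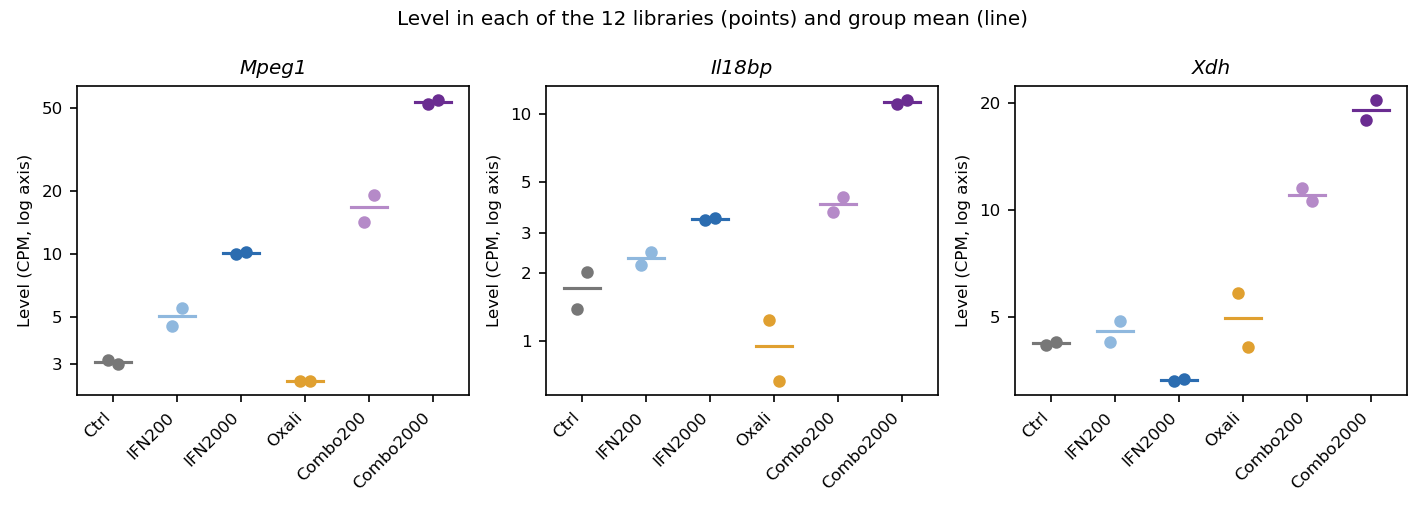
Level of Mpeg1, Il18bp and Xdh in CPM (log axis) in each of the 12 libraries (points) by treatment group, with the group mean as a line. Combo2000 is highest in each panel, at means of 53.2, 11.3 and 19.2 CPM, while IFN2000 is above Ctrl for Mpeg1 and Il18bp and below it for Xdh.

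Per kilobase of annotated exon, joined over all annotated transcripts of a gene, the 3 genes were close in Ctrl. Their means were 0.704 CPM per kb for Mpeg1, 0.565 for Il18bp and 0.459 for Xdh. The length joins 14 transcripts for Xdh and 4 for Il18bp but 1 for Mpeg1. Values per kb may thus be too low for Xdh and Il18bp beside Mpeg1, where the cells use only part of the annotated exons. In Combo2000 they stood far apart, at 12.3, 3.73 and 2.09 CPM per kb. Xdh exceeded Il18bp in CPM but not per kb in Combo2000, since its annotated exon length is greater.

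To ask what Oxali adds to the low IFNγ dose, Combo200 was compared with IFN200. Neither group's mean entered the interaction by which the genes were ranked, so this comparison was tested. Both groups did enter the call that the choice required, as its spread was estimated over all 12 libraries. Both also entered the minimum level, which was read over all 12 libraries. Over the other 8 libraries the 3 genes also averaged above it, at 3.03, 1.54 and 2.61 log2 CPM for Mpeg1, Il18bp and Xdh. Their ranks were the same there, although that ranking kept the call from all 12 libraries, so the test is not fully free of the choice. All 3 genes were higher with Oxali, Mpeg1 by 3.33-fold, Xdh by 2.42-fold and Il18bp by 1.74-fold, and both Combo200 libraries lay above both IFN200 libraries in each case. The log2 difference was 1.73 (SE 0.13) for Mpeg1, with an adjusted p of 4.00e-10 by edgeR's quasi-likelihood test over all 13177 genes. For Xdh it was 1.28 (SE 0.13, adjusted p 5.05e-08 by the same test), and for Il18bp 0.80 (SE 0.19, adjusted p 0.00081). These calls are read against a broad background, since 69.9% of all genes tested were called in this comparison, 36.5% as higher, and 44.2% had both Combo200 libraries above both IFN200 libraries. By size, 5.23% of the genes tested had a larger log2 difference than Mpeg1, 8.41% a larger one than Xdh and 15.3% a larger one than Il18bp. Without IFN200 replicate 1, the library with heart transcripts, the log2 differences were 1.59, 1.17 and 0.69 in the order Mpeg1, Xdh, Il18bp. With groups taken from the agent labels, the libraries titled IFN2000 take the place of IFN200, which by the titles is another comparison. There Il18bp was not called, at 0.22 (adjusted p 0.246 by the same test), while Mpeg1 stood at 0.73 and Xdh at 1.73 and both were called. An exact permutation test of 2 libraries against 2 cannot go below p = 0.333, so the calls rest on the spread that the model shares across groups and genes.

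The comparisons below share their control libraries and, for the most part, entered the choice of the genes, so their values stand side by side without a test. IFNγ alone moved the 3 genes differently. Relative to Ctrl, the log2 difference at 200 pg was 0.73 (SE 0.20) for Mpeg1, 0.43 (SE 0.24) for Il18bp and 0.11 (SE 0.17) for Xdh. At 2000 pg it was 1.73 (SE 0.17), 1.00 (SE 0.22) and -0.34 (SE 0.18). Estimates for Mpeg1 and Il18bp were thus positive at either dose, within the spread of the libraries for Il18bp at the low dose, and that for Xdh was negative at the higher one. Without IFN200 replicate 1 the values at 200 pg were 0.87, 0.52 and 0.20, and without IFN2000 replicate 2 those at 2000 pg were 1.75, 1.02 and -0.33. Oxali alone gave -0.30 (SE 0.23) for Mpeg1, -0.84 (SE 0.29) for Il18bp and 0.24 (SE 0.17) for Xdh. None of the 3 was raised by Oxali alone by more than the gap between its partner libraries.

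In the presence of Oxali, IFNγ was followed by higher levels of every member at both doses. From Oxali to Combo200 the log2 difference was 2.76 (SE 0.15) for Mpeg1, 2.06 (SE 0.23) for Il18bp and 1.14 (SE 0.13) for Xdh. From Oxali to Combo2000 it was 4.42 (SE 0.13), 3.55 (SE 0.19) and 1.94 (SE 0.12). The step from the low to the high dose was also steeper with Oxali. For Xdh it was -0.45 (SE 0.17) without Oxali and 0.79 (SE 0.10) with it, a difference of 1.25 (SE 0.20) between the steps. For Il18bp the steps were 0.57 (SE 0.19) and 1.48 (SE 0.14), which differed by 0.91 (SE 0.24), and for Mpeg1 they were 1.01 (SE 0.14) and 1.66 (SE 0.09), which differed by 0.65 (SE 0.17). Mpeg1, with the largest rise in all, thus had the smallest estimate of the difference between its steps and Xdh the largest. The estimates of Mpeg1 and Il18bp, and those of Il18bp and Xdh, were not separated by their SEs. Without IFN200 replicate 1 these differences were 0.78 for Mpeg1, 1.00 for Il18bp and 1.33 for Xdh, and without IFN2000 replicate 2 they were 0.64, 0.90 and 1.24.

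**Figure D2:**
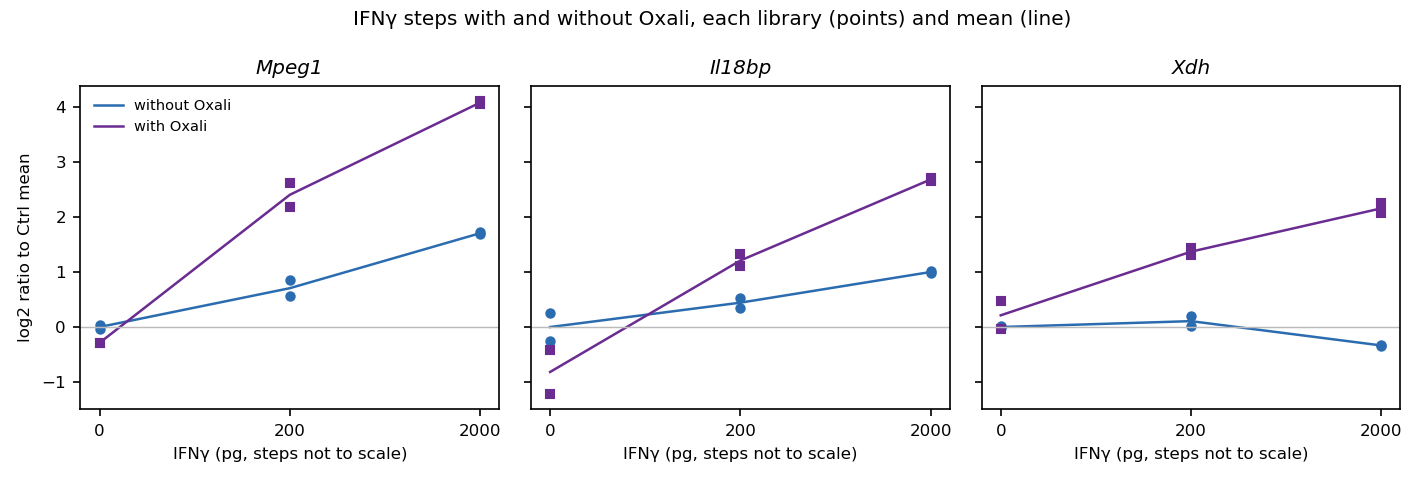
Log2 ratio to the Ctrl mean for each library (points) and the group mean (lines) at 0, 200 and 2000 pg IFNγ (steps not to scale), without Oxali (circles) and with Oxali (squares). The line with Oxali starts below the other for Mpeg1 and Il18bp and ends above it for all 3 genes, and for Xdh the line without Oxali does not rise.

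The interaction, which is the log2 difference between the IFNγ effect with Oxali and without it, was 2.68 (SE 0.26) for Mpeg1, 2.55 (SE 0.33) for Il18bp and 2.28 (SE 0.22) for Xdh at 2000 pg. The first gene outside this choice was Cd274, which encodes the checkpoint ligand PD-L1, at 1.92 (SE 0.30). At 200 pg the interactions of the 3 members were 2.03 (SE 0.27), 1.63 (SE 0.35) and 1.03 (SE 0.22). The estimates stood in the same order as at 2000 pg, with the same Ctrl and Oxali libraries in both. Without IFN200 replicate 1 these low-dose values were 1.88, 1.54 and 0.93. Without IFN2000 replicate 2, the library with T cell transcripts, the high-dose values were 2.66, 2.53 and 2.26. The Il18bp value leaned on the Oxali libraries, in which this gene had few counts, as it was 2.18 without Oxali replicate 2 and 3.07 without Oxali replicate 1. The order at 2000 pg was not firm. Il18bp exceeded Mpeg1 without Oxali replicate 1 (3.07 against 2.69) or Ctrl replicate 1 (2.77 against 2.64). Xdh exceeded Il18bp without Ctrl replicate 2 (2.25 against 2.22). Leaving out any other single library kept the order at that dose. With groups taken from the agent labels, the interaction at 200 pg was -0.00105 for Mpeg1, -0.21 for Il18bp and 1.62 for Xdh, while at 2000 pg it was 3.69, 3.12 and 1.83. By the titles these are other contrasts. The single treatments in them are IFN200 and IFN2000 for the first and IFN200 and Oxali for the second.

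How unusual these values were depended on the scale and on the minimum level. With no minimum level, the 3 genes ranked 39, 46 and 57 of 13177 by the log2 interaction at 2000 pg. Of the 38, 45 and 56 genes above them, 37, 43 and 53 had a mean under 1 log2 CPM, and 1 gene above that minimum exceeded all 3 members but was not called. At 200 pg the ranks were 55, 89 and 242. On the linear scale, the level that would follow from adding the single effects (Oxali plus IFNγ minus Ctrl) was 9.60 CPM for Mpeg1 at 2000 pg, against a measured 53.2 CPM, an excess of 43.6 ± 1.80 CPM (SD over the 2 Combo2000 libraries). For Il18bp the sum gave 2.70 CPM against 11.3 CPM, an excess of 8.59 ± 0.306, and for Xdh 4.09 CPM against 19.2 CPM, an excess of 15.1 ± 1.71. Without IFN2000 replicate 2 the excess was 43.5, 8.56 and 15.1 CPM. Measured levels were 5.54, 4.18 and 4.69 times the sum. Ranked by this excess in CPM over all genes, Mpeg1 stood at 121, Xdh at 560 and Il18bp at 1069, so on the linear scale these were not the genes with the largest excess, and Xdh stood before Il18bp.

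At 200 pg the sum of single effects was 4.49 CPM for Mpeg1, 1.57 for Il18bp and 5.32 for Xdh. The measured Combo200 means exceeded it by 12.2 ± 3.50, 2.45 ± 0.439 and 5.73 ± 0.654 CPM, or 3.72, 2.56 and 2.08 times the sum, and every Combo200 library lay above it. Without IFN200 replicate 1 the excess was 11.7, 2.29 and 5.40 CPM. Taking the product of the single folds in place of the sum, the measured level was 4.06, 3.09 and 2.05 times the product at 200 pg and 6.43, 5.85 and 4.89 times at 2000 pg.

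**Figure D3:**
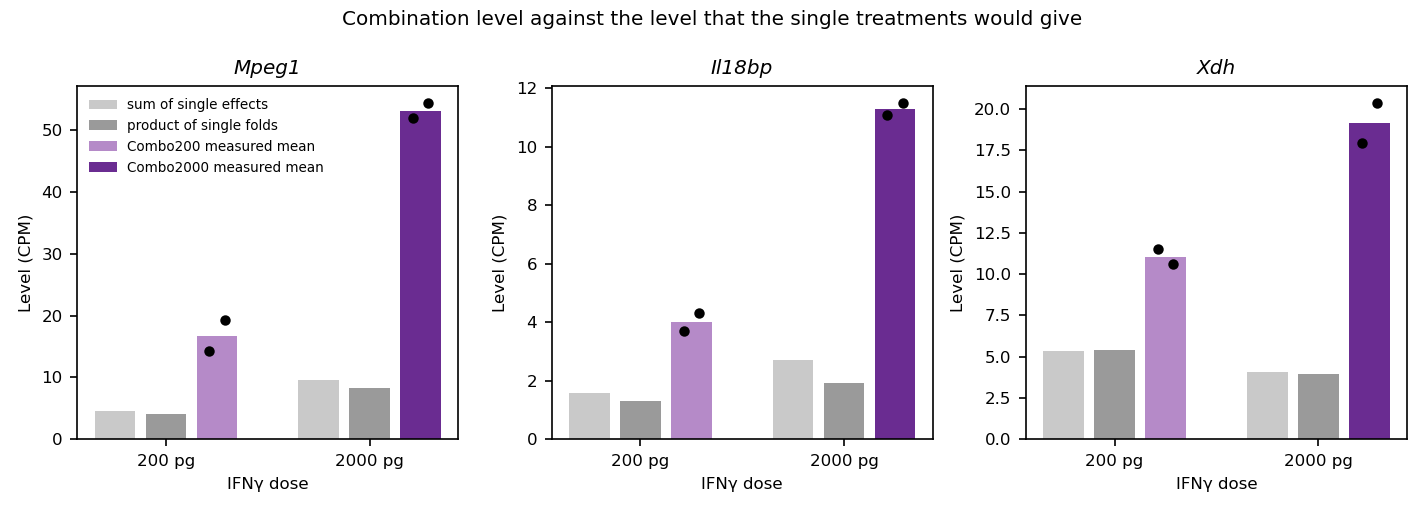
Level in CPM of the combination at each IFNγ dose, measured (colored bar, mean, with the 2 libraries as points), beside the level given by the sum of the single effects (light gray) and by the product of the single folds (dark gray). At 2000 pg the measured means of 53.2, 11.3 and 19.2 CPM compare with sums of 9.60, 2.70 and 4.09 CPM.

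Across the 12 libraries, log2 levels of Mpeg1 and Il18bp had a Pearson correlation of 0.963, Mpeg1 and Xdh one of 0.81, and Il18bp and Xdh one of 0.753. These are descriptions over 12 points that share 6 treatments. Of 11174 genes that averaged 0 log2 CPM or more, those most like Mpeg1 were Bst2 (r = 0.998), which encodes the antiviral protein tetherin, Irgm1 (0.987), an IFNγ-induced GTPase, Tor3a (0.986), Rnf31 (0.974), a subunit of the linear ubiquitin ligase, and Gm12250 (0.974). Il18bp was most like Mpeg1 (0.963), Tor3a (0.955), Bst2 (0.954), Ly6e (0.950) and the RNA helicase gene Mov10 (0.946). Xdh was most like B2m (0.965), the light chain of MHC class I, the double-stranded RNA editing and sensing genes Adar (0.958) and Eif2ak2 (0.957), Ifit3 (0.957) and the class I gene H2-Q4 (0.957). Likeness was of shape and not of size. Bst2 differed from Ctrl by 1.47 on the log2 scale in Combo2000 where Mpeg1 differed by 4.08, and Gm12250 by 5.39. Xdh and Ifit3 differed in Oxali alone, where Ifit3 stood 0.96 above Ctrl and Xdh 0.21. Taken over the 6 group means, 3 of the 5 genes stayed in the top 5 for Mpeg1, 3 for Il18bp and 1 for Xdh.

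**Figure D4:**
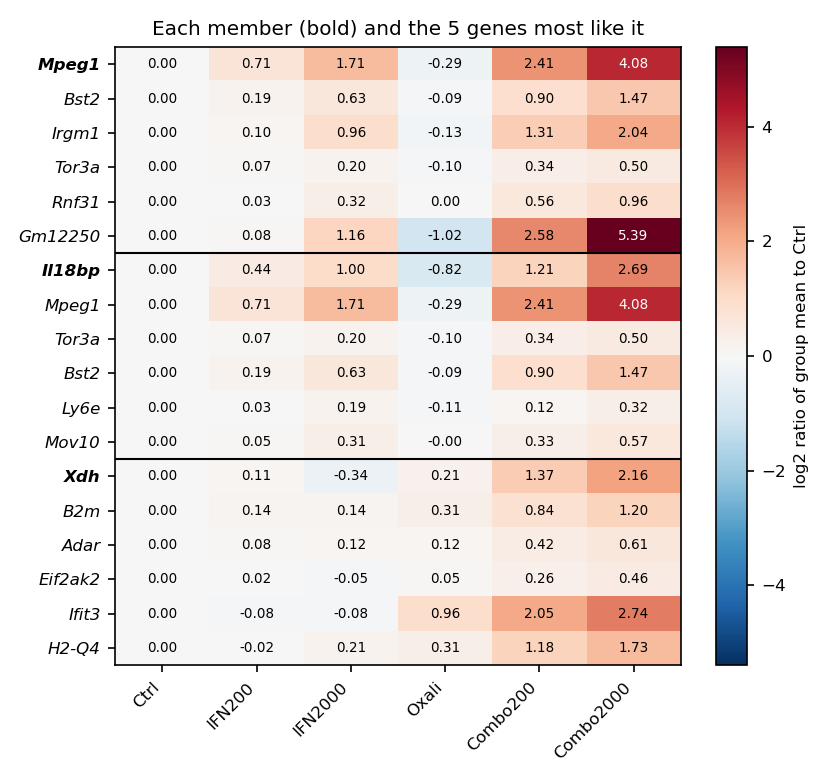
Log2 ratio of each group mean to the Ctrl mean for the 3 members (bold) and the 5 genes most like each by Pearson correlation over the 12 libraries, with the value in each cell. The Mpeg1 and Il18bp blocks have positive values in IFN2000 throughout and no value above 0.00428 in Oxali, whereas the Xdh block has positive values in Oxali throughout, from 0.05 to 0.96.

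Neighboring genes had values of their own. Dtx4, whose nearest end lies 1054 bases beyond Mpeg1 on the other strand, stood at 152 CPM in Ctrl and 173 CPM in Combo2000, and Pfpl, the next gene on the other side and itself a perforin-like gene, had 0 or 1 count in every library. Il18bp shares 80 exonic bases with Numa1, a spindle protein gene on the opposite strand, and reads there could be counted to either unless strand was used. Numa1 stood at 296 CPM in Ctrl, 230 in IFN2000, 352 in Oxali and 342 in Combo2000, with a called interaction at 2000 pg of 0.32 (SE 0.07, adjusted p 0.00957 by edgeR) that was smaller than that of Il18bp, and its groups did not follow the order of Il18bp. Lrrc51, on the other side of Numa1, stood at 0.613 CPM in Ctrl, 1.97 in Oxali and 2.30 in Combo2000, a log2 difference of 1.90 (SE 0.28) between the last and Ctrl. Rnf121, 446 bases from Il18bp, stood at 34.5 CPM in Ctrl and 35.0 in Combo2000. The genes beside Xdh, Ehd3 and Srd5a2, had no count in any library.

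Because Mpeg1 is known from macrophages, a list of 17 macrophage markers was read in the same libraries. Adgre1, Itgam, Cd163, C1qa and C1qc were at 0 in all 12, and the myeloid factor gene Spi1 had 0 to 3 counts. The summed list ran from 12.8 to 18.5 CPM without Oxali and from 16.7 to 19.2 CPM with Oxali, nearly all of it Cd14, at 225 to 409 counts. The sum was 16.7 and 17.5 CPM in Oxali, where Mpeg1 was lowest, and 17.1 and 18.5 CPM in Combo2000, where it was highest. Without Cd14 the sum was 0.723 to 1.47 CPM in 5 of the libraries without Oxali, 3.85 CPM in IFN2000 replicate 2, and 1.96 to 2.49 CPM in the 6 with Oxali, Oxali alone included. Lyz2 had 0 to 1 counts without Oxali and 3 to 11 with it. Csf1r, the receptor that macrophages need for survival, had no count in the 6 libraries without Oxali and 8 to 19 counts in the 6 with it. Their part in the members' levels was not tested.

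Genes around the 3 members in their pathways were read in 6 lists of 99 genes, of which 55 passed the filter. In Combo2000 against Ctrl, 37 of the 55 were called higher and 8 lower, 81.8% in all, where 69.2% of all genes tested were called. Oxali alone called 25 higher and 8 lower, where 67.6% of all genes were called. IFN2000 called 8 higher and 2 lower, where 16.9% of all genes were called, and 6 in all without IFN2000 replicate 2. Interactions were called for 4 of the 55 genes at 200 pg (7.27%, against 0.698% of all genes) and for 7 at 2000 pg (12.7%, against 2.72%), all of them positive. The count at 2000 pg fell to 4 without Ctrl replicate 1, Oxali replicate 2 or Combo2000 replicate 3, and the agent labels gave 31 at 200 pg. For the 31 under the agent labels no share over all genes is given, so it is not set against 0.698%. By the titles, that contrast holds libraries of Ctrl, IFN200, IFN2000 and Combo200 and none of Oxali alone. The 7 genes at 2000 pg were 1 gene of purine breakdown, 1 macrophage effector and 5 regulators.

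Among other pore-forming genes, which comprise the perforin and complement family and the gasdermins, 12 of 20 had no count in any library and 2 passed the filter. Gsdmd, the gasdermin that executes pyroptosis, rose from 1.57 CPM in Ctrl to 7.34 CPM in Combo2000, a log2 difference of 2.20 (SE 0.19, adjusted p 3.69e-09 by edgeR's quasi-likelihood test), and already stood at 3.99 CPM in Oxali. Its interaction at 2000 pg was -0.13 (SE 0.28) and was not called. Gsdme did not pass the test. The median log2 difference of both was 1.11 against 0.02 over all genes tested.

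In the list of the interleukin 18 axis, 4 of 8 genes tested rose and 2 fell in Combo2000, with a median log2 difference of 0.46. Over all genes tested, 69.2% were called in this contrast. Il18, the cytokine that Il18bp binds, stood at 0.534 CPM in Ctrl and 1.28 CPM in Combo2000 (log2 difference 1.24, SE 0.38, adjusted p 0.00728). Il18rap, a chain of the receptor, rose from 0.319 to 2.17 CPM but stood at 1.82 CPM in Oxali alone. Casp4, an inflammasome caspase with no count in Ctrl and 20 and 12 counts in Combo2000, was at least 3.95-fold higher, computed against 3 counts in each Ctrl library. Traf6, an adaptor in the signal, fell by 0.21 on the log2 scale (SE 0.05).

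Purine breakdown and salvage genes, the pathway of Xdh, were split, with 4 of 15 higher and 6 lower in Combo2000. Their median log2 difference was -0.09, and 69.2% of all genes tested were called in this contrast. Urah, which acts on the product of urate oxidation, rose most, by 0.69 (SE 0.22, adjusted p 0.00951), and Nt5c, a nucleotidase, fell most, from 54.6 to 35.0 CPM, and stood at 33.4 CPM in Oxali. Ampd3, an AMP deaminase, was outside the 6 genes to be named and is given after its values were seen. It had a called interaction of 0.28 (SE 0.06) at 2000 pg. Its mean was 300 CPM in Ctrl, 241 in IFN2000, 403 in Oxali and 393 in Combo2000. This positive value thus went with a lower level in IFN2000 and not with a rise from Oxali. Among the other molybdenum enzymes and the genes that build their cofactor, 8 of 10 were called higher in Combo2000, with a median of 0.79. The other 2 were not called. Oxali alone already called 5 of the 10 higher, with a median of 0.54, where 67.6% of all genes were called. None of the 10 had a called interaction at 200 or 2000 pg. Marc1 rose most, by 2.09 (SE 0.62), from a level near the limit of detection in Ctrl, and it stood at 0.703 CPM in Oxali and 0.697 CPM in Combo2000.

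All 7 effector genes of activated macrophages that passed the filter were called higher in Combo2000 than in Ctrl. Of all genes tested, 69.2% were called there, in either direction. The median log2 difference of the 7 was 2.58. It was 2.10 with the genes at 3 counts or fewer in both Ctrl libraries at their lower bound. Oxali alone already called 4 of the 7 higher and 1 lower, where 67.6% of all genes were called. Nos2, the inducible nitric oxide synthase, had no count in Ctrl and 51 and 44 counts in Combo2000, at least 11.9-fold higher. Ido1, which degrades tryptophan, had 3.63 CPM in Ctrl, 1.38 in Oxali, 16.3 in IFN2000 and 21.8 in Combo2000. Its interaction was called at both doses, with 1.78 (SE 0.22) at the low and 1.81 (SE 0.20) at the high one.

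Of 14 genes for the IFNγ receptor, its kinases and the transcription factors, 13 passed the filter. All 13 were called higher in Combo2000 than in Ctrl, with a median log2 difference of 1.06. Of all genes tested, 69.2% were called there, in either direction. Oxali alone already called 11 of the 13 higher, with a median of 0.74, where 67.6% of all genes were called. Irf9 had interactions of 1.24 and 1.02, and Irf1 of 1.17 and 0.88, at the low and the high dose. Irf8, a factor known from myeloid cells, had its only called interaction at 2000 pg, at 2.25 (SE 0.54, adjusted p 0.0287 by edgeR), on levels of 0.653 CPM in Oxali and 7.71 CPM in Combo2000. Irf2 followed with 0.31 (SE 0.07) at that dose. The difference between the interactions at the high and the low dose, which is the same quantity as the difference between the dose steps above and was called for 6.59% of all genes tested, was -0.29 (SE 0.06, adjusted p 0.011 by edgeR) for Irf1.

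**Figure D5:**
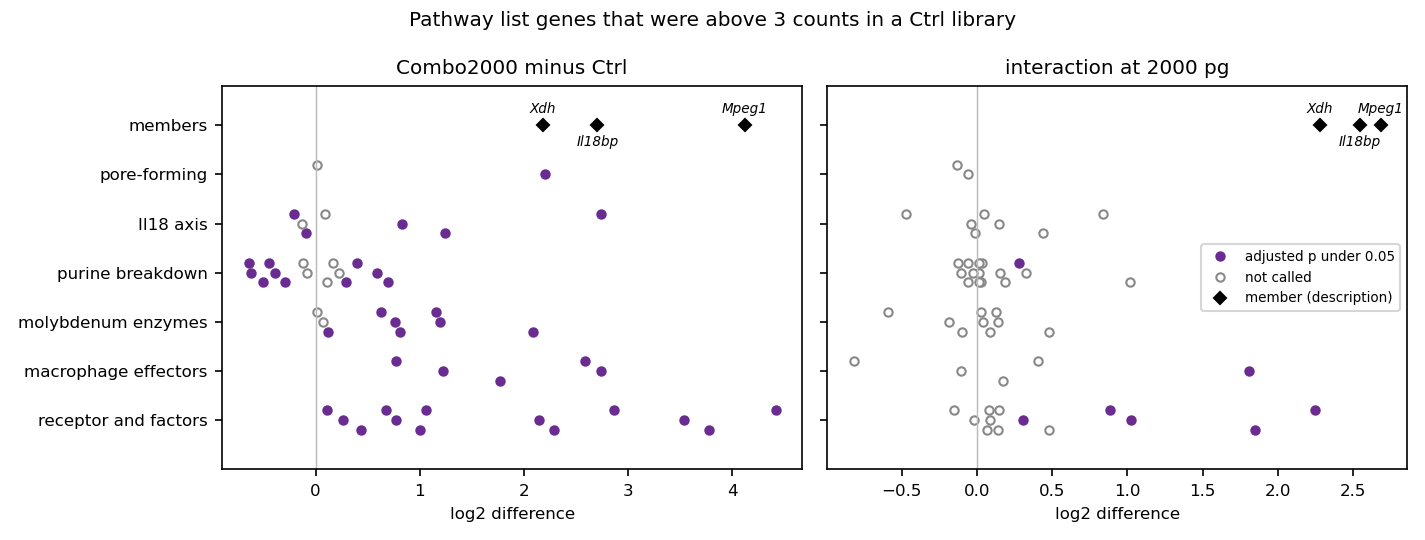
Log2 difference of Combo2000 from Ctrl (left) and the interaction at 2000 pg (right) for the genes of 6 pathway lists that had more than 3 counts in at least 1 Ctrl library, filled where called, with the 3 members (diamonds, without a test) on the first line. The members' positions on the right follow from how they were chosen. Of the called list genes on the right, Irf8 has the largest value, at 2.25.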

How the data were processed

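RNA-seq was performed on 12 Myc-CaP libraries (poly(A) RNA, stranded kit). The authors deposited raw counts per gene. The methods of the study describe STAR alignment to GRCm38 and featureCounts on GENCODE models, while the submitters' processing notes name STAR 2.7.3a and RSEM 1.3.0. The strand setting is not given in the sources used here. The table held 55216 genes, 28300 without a count, and all columns were used.

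The quasi-likelihood test of edgeR 4.0.16 (R 4.3.3) was run on TMM-scaled counts. The filter filterByExpr (minimum count 10, minimum total 15) left 13177 genes. All 12 libraries entered 1 model with a mean per group. Genes were called where p, adjusted by Benjamini-Hochberg over all genes of a contrast, was under 0.05. Scaling by TMM sets the levels of the libraries with Oxali slightly lower and those of the others slightly higher than library totals would. The self-test ran on simulated counts. DESeq2 1.42.0, other scalings, filters, a replicate block, the agent labels and leaving out each library were tried as alternatives.

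The members, lists and rules were chosen with earlier results of these data known. Genes to be named were the members, the gene next in rank, the 5 most like each member (log2 CPM, prior count 2), neighbors, and per pathway list the largest called rise and fall in Combo2000 and at most 6 genes with a called interaction. The contrast between dose steps was added, and other genes named were chosen after their values were seen. Coordinates came from GENCODE release 21, promoters from RefSeq. Some genes of the lists enter the counts but are not reported here by name.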

Additional observations from a re-analysis of the deposited data

Results flagged for a closer look

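Genes of the pathway lists whose IFNγ effect differed with and without Oxali, by a test of that difference (edgeR's quasi-likelihood test, adjusted over 13177 genes), included the following. At 200 pg the log2 interaction was 1.78 for Ido1 (adjusted p 0.000133), 1.24 for Irf9 (adjusted p 1.01e-05) and 1.17 for Irf1 (adjusted p 3.61e-09). At 2000 pg it was 2.25 for Irf8 (adjusted p 0.0287), 1.81 for Ido1 (adjusted p 1.67e-05), 1.02 for Irf9 (adjusted p 3.72e-05), 0.884 for Irf1 (adjusted p 7.58e-08), 0.309 for Irf2 (adjusted p 0.0162) and 0.282 for Ampd3 (adjusted p 0.0114). Between the doses, the interaction at 2000 pg minus that at 200 pg was 0.305 for Ampd3 (adjusted p 0.00566), -0.289 for Irf1 (adjusted p 0.011) and -0.667 for Cebpb (adjusted p 0.0433). With 2 libraries per group no single library could be called apart from its group.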

How the results depend on the processing

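The difference of Combo200 from IFN200 kept its direction and its call in all 21 alternatives for Mpeg1 and Xdh and in 20 for Il18bp. Leaving out 1 library at a time gave 1.48 to 1.93 for Mpeg1, 0.66 to 0.90 for Il18bp (highest adjusted p 0.0198, edgeR) and 1.17 to 1.36 for Xdh, with 8247 to 9451 genes called against 9217. With groups by the agent labels, where libraries titled IFN2000 take the place of IFN200, Il18bp stood at 0.22 (adjusted p 0.246, edgeR), Mpeg1 at 0.73 and Xdh at 1.73. Under these labels the interaction at 2000 pg was 3.69 for Mpeg1, 3.12 for Il18bp and 1.83 for Xdh, that at 200 pg was -0.00105, -0.21 and 1.62, the list genes with a called interaction at 200 pg numbered 31, and the excess over the sum at 2000 pg was 48.7 CPM for Mpeg1 and 9.72 CPM for Il18bp. The excess at 200 pg was then 4.56 CPM for Mpeg1, -0.0491 CPM for Il18bp and 7.39 CPM for Xdh. By the titles, these interactions and excesses compare other treatments than the main fit does. The count of 31 has no share over all genes beside it. Scaling by library totals alone gave an excess at 2000 pg of 45.9 CPM for Mpeg1 and 9.09 CPM for Il18bp.

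Leaving out 1 library at a time gave interactions at 2000 pg of 2.64 to 2.72 for Mpeg1, 2.18 to 3.07 for Il18bp and 2.05 to 2.56 for Xdh, and at 200 pg of 1.79 to 2.22, 1.27 to 2.16 and 0.80 to 1.32. The excess at 2000 pg ran from 42.2 to 44.5 CPM, 8.24 to 8.89 CPM and 13.9 to 16.2 CPM. List genes with a called interaction numbered 4 to 9 at 2000 pg, with 4 without Ctrl replicate 1, Oxali replicate 2 or Combo2000 replicate 3, and 4 to 6 at 200 pg, and those called in Combo2000 against Ctrl 37 to 47. Deviations of same-numbered libraries from their group means had correlations from -0.0456 to 0.045. With 2 libraries per group the deviations of partners are mirror images, so these values cannot settle whether same-numbered libraries share a batch. With a replicate block the interaction of Mpeg1 at 200 pg was 1.88, against 2.03 without it. Fits of IFNγ alone and of the dose steps without the 2 libraries that stood apart were added after seeing the data, and the 3 genes kept their directions in them. For these moves the cause was not tested. Depth limits Il18bp most, with 14 counts in its lowest library.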

Other observations

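A pair of genes from the marker lists differed between libraries titled with Oxali and the others. Tnnt2, a heart muscle troponin, had 68 to 125 counts with Oxali and 15 to 47 without. Lck, a T cell kinase, had 24 to 40 counts with Oxali and 3 to 13 without, leaving out IFN2000 replicate 2, which had 36.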
